A study of Homo sapiens with 4 samples.

Results

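The genes described here encode the RNA-binding proteins and core particles that carry out pre-mRNA splicing: the SR proteins (SRSF symbols), the heterogeneous nuclear ribonucleoproteins (HNRNP symbols), the proteins of the spliceosomal small nuclear ribonucleoproteins (SNRP symbols) and the SF3A and SF3B subunits of the U2 particle. They were chosen by symbol, leaving out symbols that mark pseudogenes, and earlier results of these data were known at the time. The choice gave 58 of the 60662 entries of the deposited count table, made up of 12 SR proteins, 25 hnRNPs, 12 snRNP proteins and 9 SF3A and SF3B subunits. RNA was sequenced from U937, an established human myeloid line derived from a histiocytic lymphoma. Cells of 2 lots were kept for 72 h with PMA (phorbol myristate acetate) at 10 nM, a phorbol ester and activator of protein kinase C, or for 72 h without it. Each lot gave 1 PMA library and 1 untreated library, so each group holds 2 libraries. The treatment was meant, per the labels, to give macrophage-like cells, and they do not say whether the lots were separate cultures. The p-values therefore rest on a spread between libraries that may be technical only.

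Introns are removed by the spliceosome, which is assembled on each intron from small nuclear RNAs and their proteins. Most of these RNAs carry a ring of Sm proteins, encoded by SNRPB, SNRPD1, SNRPD2, SNRPD3, SNRPE, SNRPF and SNRPG, with SNRPN as a close relative of SNRPB. The U1 particle, which recognises the start of an intron, also holds the SNRPA and SNRPC products, and the U2 particle, which binds the branch point, holds those of SNRPA1 and SNRPB2 together with SF3A and SF3B. SR proteins bind exons and usually favour their inclusion, and hnRNPs coat nascent RNA and often act against inclusion. SRSF2 and SF3B1 are known in myeloid cells as genes that are recurrently mutated in myelodysplastic syndromes.

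Depth was 35739833 to 54915928 counts per library, and the 58 genes took 0.527% and 0.514% of counts in the PMA libraries of lots 1 and 2, against 1.01% and 1.27% in the untreated libraries. The label was checked with marker lists. All 8 myeloid genes were measured, at a summed 13951 and 14842 CPM with PMA, against 1931 and 2662 CPM without, and all 6 macrophage genes rose. Of the 8 myeloid genes 2 rose, ITGB2 and LAPTM5, and these made up most of the sum with PMA. The others were not called, and LYZ was at 211 and 126 CPM with PMA, against 136 and 905 CPM without. Erythroid genes were listed at 0 in every library for 6 of 6, and T and NK cell genes for 5 of 6, the exception being NKG7 (86.6 and 131 CPM with PMA, against 199 and 401 CPM without). Epithelial genes were at 0 everywhere for 4 of 6, fibroblast genes for 5 of 6 and B cell genes for 1 of 5, with summed levels of at most 3.15, 0.965 and 26.8 CPM. In all 8 proliferation genes both PMA libraries lay below both untreated libraries, as in 29.4% of all tested genes. Of the 8, 6 were called lower by the edgeR test described below, against 2.02% of all tested genes. The summed level of the 8 was 234 and 159 CPM with PMA, against 1972 and 2057 CPM without. The part of this shift in the splicing genes' values was not tested. In bulk RNA, fewer cells of a type and less RNA per cell cannot be told apart.

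Splicing genes sat mostly lower in the PMA libraries, by modest amounts, and few single genes passed the test. A level is given in CPM, counts scaled to one common library size with TMM factors. A log2 fold change is that of PMA over untreated cells, followed by its standard error. All fold changes and lot ratios below are on the log2 scale. By the quasi-likelihood test of edgeR, with p-values adjusted over 16451 genes after Benjamini and Hochberg and a threshold of 0.05, 3 of 53 tested members fell and 0 rose, which is 5.66% lower, against 2.02% called lower and 4.29% called higher among all tested genes. The 3 genes were HNRNPA1, SNRPA and SF3A3. At an unadjusted p under 0.05 the members numbered 21, of which 20 were lower, against 12.5% lower among all tested genes. DESeq2 called 16 members lower and 1 higher, against 10.4% and 13.4% of all genes. The median log2 fold change was −0.76 over the tested members, also with HNRNPLL set at its bound, and 0.00 over all tested genes. The fitted value was below 0 in 48 of 53, against 50.0% of all tested genes. Both PMA libraries lay below both untreated libraries in 38 of 53, against 29.4% of all tested genes, and above them in 2 of 53, against 31.0%.

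**Figure D1:**
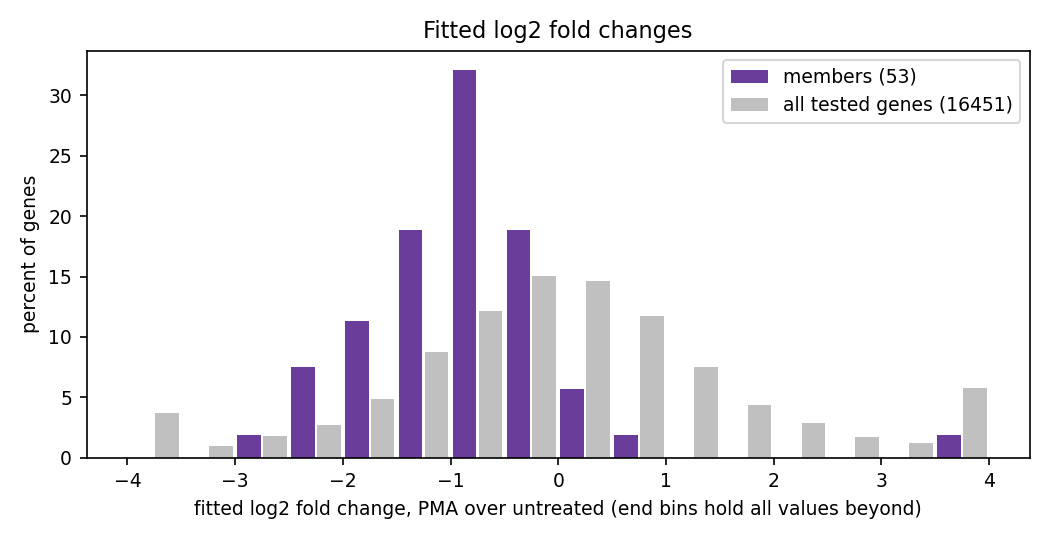
Percent of genes (vertical axis) in each 0.5-wide bin of the fitted log2 fold change of PMA over untreated cells (horizontal axis), for the 53 tested members and for all 16451 tested genes, with values beyond the ends put in the end bins. The members centre at −0.76 and all genes at 0.00, and the member in the last bin on the right is HNRNPLL, whose fitted value rests on a prior count because it was listed at 0 without PMA.

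The count of 3 lower genes rested on few libraries. With 1 library left out, 1 group holds 1 library, and the number of genes called changed among the members and among all genes. The median log2 fold change of the members was −0.82 without PMA replicate 1 and −0.77 without PMA replicate 2. It was −0.50 without untreated replicate 2 and −1.18 without untreated replicate 1. Under a lot block the lower members numbered 1, the gene HNRNPA1, against 244 of 16451 tested genes. HNRNPLL was then called higher.

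The proteins of the U1, U2 and other small nuclear particles had the lowest median of the 4 families. All 12 were tested, and both PMA libraries lay below both untreated ones in all 12, against 29.4% of all tested genes. Their median log2 fold change was −1.21, with −1.07 in lot 1 and −1.32 in lot 2, where all tested genes had medians of −0.04 and 0.06. At least 2-fold lower in both lots were 6 of the 12, against 11.0% of all tested genes. Of the 12, 1 was called lower by the test, against 2.02% of all tested genes.

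SNRPA, which encodes the A protein of U1, a binder of a hairpin in U1 RNA, was the one called. It was at 40.8 and 37.1 CPM in the PMA libraries of lots 1 and 2, against 142 and 237 CPM in the untreated libraries. SNRPA shares exon sequence on the opposite strand with C19orf54, at 20.5 and 34.3 CPM with PMA, against 98.1 and 54.3 CPM without. Both SNRPA values with PMA lay below both untreated values, as in 29.4% of all tested genes, and were close to each other. The fold change was −2.28 ± 0.39 (edgeR adjusted p = 0.0406), with adjusted p = 0.0551 under a lot block, 0.164 without PMA replicate 1 and 0.230 without PMA replicate 2. SNRPC, which encodes the other U1-specific protein of the set and stabilises the pairing of U1 with the intron start, was at 48.9 and 71.8 CPM with PMA, against 97.1 and 155 CPM without (−1.06 ± 0.41, adjusted p = 0.178).

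In the Sm ring, SNRPF had the lowest fitted value of all members with the 4 libraries, but not without untreated replicate 2, where it was −1.77 and HNRNPA1 was −1.94. It was at 8.41 and 8.05 CPM with PMA, against 28.1 and 86.2 CPM without (−2.80 ± 0.65, adjusted p = 0.0683). The PMA libraries were alike, while the untreated libraries differed by lot. SNRPD1 was at 20.01 and 17.4 CPM with PMA, against 52.8 and 101 CPM without (−2.04 ± 0.46, adjusted p = 0.0649). SNRPE was at 16.5 and 18.3 CPM with PMA, against 45.1 and 67.0 CPM without (−1.69 ± 0.39, adjusted p = 0.0701). Both genes again had nearly equal PMA values and a higher untreated value in lot 2. SNRPD2 was at 224 and 226 CPM with PMA, against 442 and 961 CPM without (−1.64 ± 0.45), and SNRPB at 292 and 332 CPM with PMA, against 681 and 778 CPM without (−1.23 ± 0.29). None of these passed over all genes. SNRPD1, SNRPE, SNRPF and SNRPB passed with a filter of 5 CPM in 2 libraries, at edgeR adjusted p = 0.0389, 0.0461, 0.0388 and 0.0490. With that filter 721 of 10841 genes were called lower, against 332 of 16451 in the main fit. Under a lot block these 4 genes did not pass, at edgeR adjusted p = 0.0855, 0.0806, 0.0840 and 0.0868.

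The remaining ring genes had smaller differences. SNRPG was at 58.1 and 58.8 CPM with PMA, against 69.4 and 156 CPM without, and SNRPD3 at 49.1 and 39.1 CPM with PMA, against 62.3 and 82.1 CPM without. SNRPN, the imprinted relative of SNRPB, had the value nearest 0 of the family, at 24.9 and 31.5 CPM with PMA, against 37.1 and 32.5 CPM without (−0.30 ± 0.37, adjusted p = 0.659). Its exons are shared with SNHG14 and SNURF in GENCODE 29, so the split of reads among them is uncertain. Of the U2-specific proteins, SNRPA1 (the A′ protein) was at 20.9 and 21.0 CPM with PMA, against 46.6 and 49.0 CPM without (−1.19 ± 0.35, adjusted p = 0.103), with its partner SNRPB2 at 96.0 and 104 CPM with PMA, against 123 and 146 CPM without (−0.43 ± 0.30).

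Per kilobase of the longest annotated transcript, the ring genes spanned a wide range although their products sit in the ring in equal numbers. SNRPB was at 253 and 287 CPM per kb with PMA, against 590 and 674 CPM per kb without, and SNRPD2 at 249 and 251 CPM per kb with PMA, against 491 and 1067 CPM per kb without. These were the highest levels per kb of all 58 genes in both groups. SNRPF was at 6.05 and 5.79 CPM per kb with PMA, against 20.2 and 62.0 CPM per kb without. SNRPD1 was lower still by this scale, at 4.08 and 3.55 CPM per kb with PMA and 10.8 and 20.6 CPM per kb without, but its longest annotated transcript of 4909 bases may not be the one these cells make.

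SF3A, the trimer that joins SF3B in the mature U2 particle, had unequal values among its subunits. SF3A3 fell and was at 76.3 and 57.7 CPM with PMA, against 214 and 277 CPM without (−1.87 ± 0.34, adjusted p = 0.0464). Both PMA values lay below both untreated values, as in 29.4% of all tested genes. Its adjusted p was 0.0512 with RLE factors, 0.0654 under a lot block, 0.0519 without untreated replicate 2, 0.180 without PMA replicate 1 and 0.336 without PMA replicate 2. SF3A2 was at 55.8 and 103 CPM with PMA, against 196 and 249 CPM without (−1.49 ± 0.42, adjusted p = 0.0967). SF3A1, the largest subunit, was at 124 and 107 CPM with PMA, against 144 and 122 CPM without (−0.21 ± 0.30, adjusted p = 0.725), with overlapping groups.

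The 6 SF3B genes were not called, with a median of −0.64. SF3B3, a scaffold subunit, was at 131 and 105 CPM with PMA, against 233 and 421 CPM without (−1.47 ± 0.41, adjusted p = 0.0937). SF3B1, which holds the branch-point adenosine, had the value nearest 0, at 425 and 313 CPM with PMA, against 564 and 280 CPM without (−0.19 ± 0.44, adjusted p = 0.828). Its lots went opposite ways, at −0.41 in lot 1 and 0.16 in lot 2. SF3B6 was at 147 and 146 CPM with PMA, against 234 and 251 CPM without, and SF3B5 at 108 and 117 CPM with PMA, against 115 and 245 CPM without. These small proteins had the highest levels per kb in the family, at 190 and 190 CPM per kb for SF3B6 and 156 and 168 CPM per kb for SF3B5 with PMA, against 304 and 326 CPM per kb and 166 and 353 CPM per kb without.

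The stretch before the start of transcription is shown for the 3 SF3A genes, because the subunits of this complex had unequal values and each stretch holds the same ETS motif, and for SNRPA and HNRNPLL, the lowest of the genes called and the gene with no counts in untreated cells. The sequences are from RefSeq on GRCh38.p14, 250 bases each, read 5′ to 3′ on the strand of the gene and ending at the base before the start. SF3A1 lies on the minus strand at chr22:30356895-30357144, SF3A2 on the plus strand at chr19:2236574-2236823 and SF3A3 on the minus strand at chr1:37990023-37990272. SNRPA lies on the plus strand at chr19:40750953-40751202 and HNRNPLL on the minus strand at chr2:38602929-38603178. Capitals mark matches on either strand to 7 motifs, the E-box CACGTG, the GC box GGGCGG, the ETS motif CCGGAAGT, the NRF1 motif, the E2F motif TTTCCCGC, the CCAAT box and the TATA box TATAAA. Motifs may overlap, as an E2F motif and a GC box do in HNRNPLL.
SF3A1: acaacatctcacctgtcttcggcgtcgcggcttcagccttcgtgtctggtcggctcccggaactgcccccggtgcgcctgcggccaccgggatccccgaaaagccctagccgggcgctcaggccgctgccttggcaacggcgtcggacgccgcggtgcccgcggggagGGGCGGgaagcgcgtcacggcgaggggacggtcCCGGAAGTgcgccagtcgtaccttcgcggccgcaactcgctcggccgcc
SF3A2: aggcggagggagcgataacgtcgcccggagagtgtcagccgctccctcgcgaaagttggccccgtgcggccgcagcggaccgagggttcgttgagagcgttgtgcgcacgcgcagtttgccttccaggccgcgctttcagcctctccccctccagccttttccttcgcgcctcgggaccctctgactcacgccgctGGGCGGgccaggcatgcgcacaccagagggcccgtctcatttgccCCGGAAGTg
SF3A3: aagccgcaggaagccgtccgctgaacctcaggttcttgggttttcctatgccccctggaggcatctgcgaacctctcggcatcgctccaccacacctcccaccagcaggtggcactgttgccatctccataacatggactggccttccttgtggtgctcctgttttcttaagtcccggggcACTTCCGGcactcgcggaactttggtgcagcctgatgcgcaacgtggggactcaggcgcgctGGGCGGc
SNRPA: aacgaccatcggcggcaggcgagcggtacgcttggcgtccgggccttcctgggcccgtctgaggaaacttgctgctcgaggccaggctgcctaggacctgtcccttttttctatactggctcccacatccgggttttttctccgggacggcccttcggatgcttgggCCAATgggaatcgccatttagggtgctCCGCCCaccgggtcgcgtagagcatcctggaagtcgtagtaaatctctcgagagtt
HNRNPLL: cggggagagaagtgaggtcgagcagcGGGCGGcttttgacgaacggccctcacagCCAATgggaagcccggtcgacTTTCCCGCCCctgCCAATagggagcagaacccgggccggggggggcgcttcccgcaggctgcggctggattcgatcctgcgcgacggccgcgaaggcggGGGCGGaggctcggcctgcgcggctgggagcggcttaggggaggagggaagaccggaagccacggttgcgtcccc

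The ETS motif starts 49 bases upstream of the start in SF3A1, 9 in SF3A2 and 69 in SF3A3, where it stands on the opposite strand. Among members, 53 matched a RefSeq entry, and SRSF2, SNRPD1, SF3B3, HNRNPA1 and HNRNPCL3 did not. The ETS motif was in 12 of the 53 (22.6%), against 4.13% of the 27305 genes with a RefSeq promoter. A gene was counted if any of its 250-base windows held the motif. The 27305 genes were not limited to those tested here. Members had 76 windows for 53 genes, against 35116 windows for the 27305 genes, and no adjustment was made for either difference. The ETS motif was also upstream of SF3B2, SF3B4, SF3B6, SNRPA1, SNRPB, SNRPE, HNRNPD, SRSF4 and SRSF5. Their log2 fold changes ran from −1.69 for SNRPE to 0.26 for SRSF5. The E-box was in 13.2% of members and 7.73% of all genes, the GC box in 60.4% and 46.2%, the CCAAT box in 49.1% and 37.0%, the E2F motif in 5.66% and 1.70%, the TATA box in 13.2% and 13.0%, and the NRF1 motif in 0 of 53 and 1.28%. A match of letters is a description and shows no binding.

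**Figure D2:**
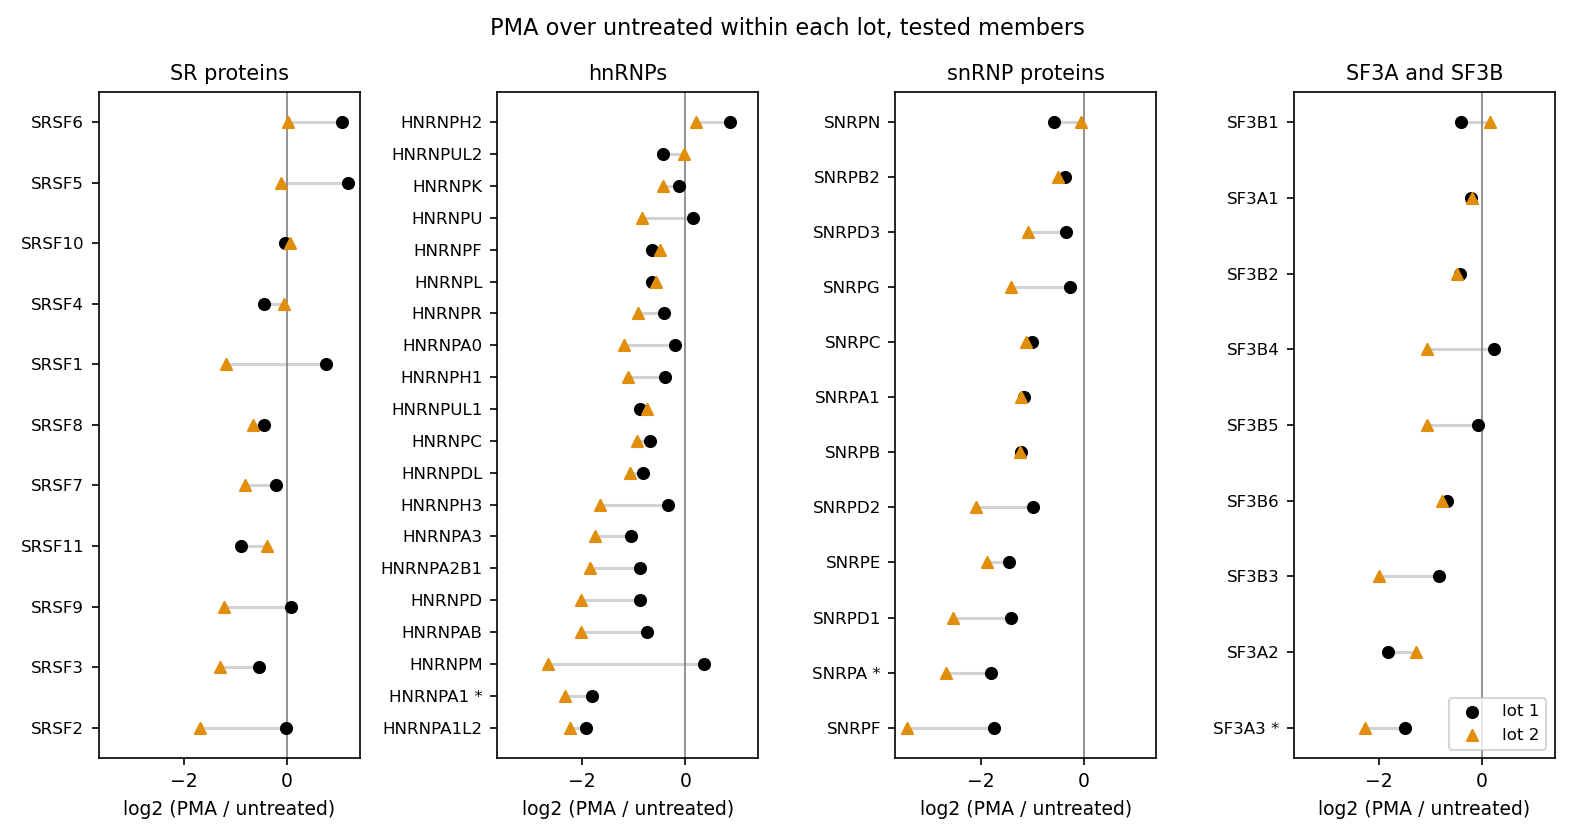
Log2 ratio of the PMA level to the untreated level (horizontal axis) within lot 1 (black circles) and lot 2 (orange triangles) for 52 tested members by family, ordered by fitted fold change, with an asterisk at the 3 genes called lower; HNRNPLL has no ratio because it was listed at 0 without PMA. All 12 snRNP proteins lie below 0 in both lots, while SR proteins in lot 1 have a median of −0.03.

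The hnRNPs spanned the widest range. Of 25 genes 21 were tested. Of these 1 fell and 0 rose, against 2.02% called lower and 4.29% called higher among all tested genes. The median log2 fold change was −0.80, with −0.65 in lot 1 and −1.09 in lot 2. Both PMA libraries lay below both untreated libraries in 16 of 21, against 29.4% of all tested genes. They lay above in 2 of 21, HNRNPH2 and HNRNPLL, against 31.0% of all tested genes.

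HNRNPA1, an abundant shuttling protein that represses exon inclusion, was the one that fell. It was at 115 and 95.2 CPM with PMA, against 403 and 482 CPM without (−2.07 ± 0.31, adjusted p = 0.0341). It stayed called under a lot block (adjusted p = 0.0492) and was lost without PMA replicate 1 (0.126) and PMA replicate 2 (0.216). HNRNPA1L2, its near-identical copy, was at 4.23 and 5.45 CPM with PMA, against 16.1 and 25.6 CPM without (−2.10 ± 0.50, adjusted p = 0.0728), and its reads cannot be told apart from those of HNRNPA1 with certainty. The other A and B type genes lay in the same direction. HNRNPA3 was at 123 and 89.8 CPM with PMA, against 254 and 303 CPM without (−1.39 ± 0.33, adjusted p = 0.0719). HNRNPA2B1, which also sorts RNA in the cytoplasm, was at 179 and 147 CPM with PMA, against 328 and 530 CPM without (−1.40 ± 0.37, adjusted p = 0.0859). HNRNPAB and HNRNPA0 had fold changes of −1.55 ± 0.54 and −0.76 ± 0.41. In this group of 6 the untreated value of lot 2 was above that of lot 1 for each gene.

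HNRNPD (AUF1), which binds AU-rich elements and speeds mRNA decay, was at 70.1 and 59.4 CPM with PMA, against 129 and 241 CPM without (−1.51 ± 0.42, adjusted p = 0.0934). HNRNPC, whose tetramers coat nascent RNA, was at 284 and 331 CPM with PMA, against 459 and 632 CPM without (−0.83 ± 0.32, adjusted p = 0.181). HNRNPUL1 was at 221 and 263 CPM with PMA, against 407 and 440 CPM without (−0.80 ± 0.29, adjusted p = 0.160). In all 3 both PMA libraries lay below both untreated libraries, as in 29.4% of all tested genes, and none passed the test. HNRNPUL1 shares exon sequence on the opposite strand with TGFB1, which was at 982 and 1098 CPM with PMA, against 194 and 267 CPM without. No source used here states whether strand was used in counting.

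HNRNPK, HNRNPF, HNRNPU, HNRNPH1 and HNRNPH2 were not called either. HNRNPK, a KH-domain protein and the highest hnRNP per kb, was at 412 and 357 CPM with PMA, against 449 and 481 CPM without (−0.27 ± 0.28, adjusted p = 0.599). HNRNPF, which binds G-rich runs, was at 231 and 223 CPM with PMA, against 364 and 313 CPM without (−0.58 ± 0.29). HNRNPU, the scaffold attachment protein, was at 269 and 177 CPM with PMA, against 242 and 315 CPM without (−0.32 ± 0.36). HNRNPU overlapped between the groups. HNRNPK and HNRNPF lay below in both PMA libraries, as did 29.4% of all tested genes. HNRNPH2, a relative of HNRNPF encoded on the X chromosome, was one of 2 members above in both PMA libraries, at 82.7 and 61.6 CPM, against 45.2 and 53.2 CPM without (0.55 ± 0.35, adjusted p = 0.389), while HNRNPH1 was at 31.4 and 29.2 CPM with PMA, against 41.2 and 63.4 CPM without (−0.79 ± 0.39, adjusted p = 0.276). The sign of the HNRNPH2 value was positive under every scaling tried.

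HNRNPLL, known from activated lymphocytes as a regulator of CD45 exon skipping, was seen only in PMA libraries. It had 646 and 92 counts with PMA in lots 1 and 2, against 0 and 0 counts without. These are 19.8 and 1.99 CPM, so the PMA libraries differed 9.96-fold from each other. Taking 3 counts per untreated library as the floor, the mean with PMA was at least 186-fold higher, or at least 28.6-fold higher by lot 2 alone. The gene did not pass (adjusted p = 0.0618), but passed under a lot block (0.0445), with no filter on low counts (0.0326), with DESeq2 (2.62e-08) and without PMA replicate 2 (0.00475), and had adjusted p = 0.140 without PMA replicate 1. A value listed at 0 may be an estimate that failed. The gene for CD45, PTPRC, was at 237 and 124 CPM with PMA, against 129 and 28.9 CPM without, and counts per gene do not show its exons.

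**Figure D3:**
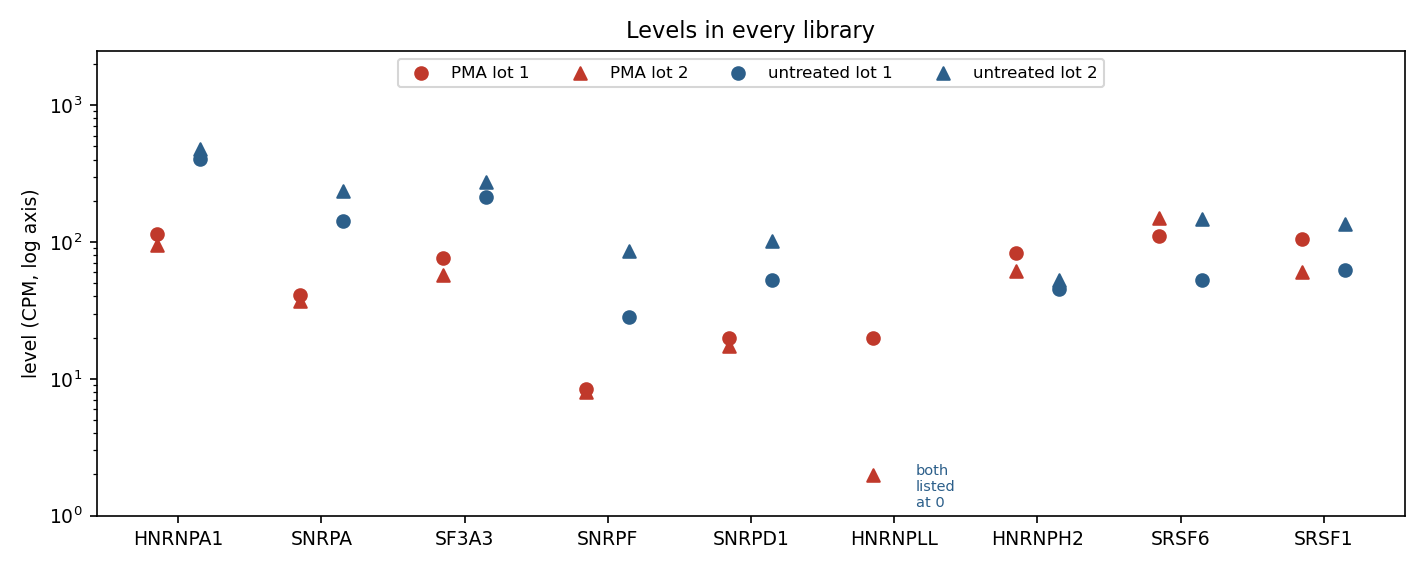
Level in CPM (vertical log axis) of 9 members in the PMA libraries (red) and the untreated libraries (blue), with circles for lot 1 and triangles for lot 2. HNRNPA1, SNRPA and SF3A3, the genes called lower, lie below in both PMA libraries, as do 29.4% of all tested genes. HNRNPLL was listed at 0 in both untreated libraries, and SRSF6 and SRSF1 overlap.

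SR proteins had the family median nearest 0 and no call. Of 12 genes 11 were tested, with a median log2 fold change of −0.57, and adjusted p-values began at 0.244. Among all tested genes edgeR called 2.02% lower and 4.29% higher. At an unadjusted p under 0.05 there were 0 SR genes, against 12.5% lower among all tested genes. DESeq2 called 0 lower and 0 higher, against 10.4% and 13.4% of all genes. Both PMA libraries lay below both untreated libraries in 5 of 11, against 29.4% of all tested genes. The groups overlapped in 6 of 11, against 6517 of 16451 tested genes.

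SRSF3, the shortest classical SR protein and an mRNA export adaptor, was at 148 and 188 CPM with PMA, against 214 and 460 CPM without (−1.01 ± 0.46, adjusted p = 0.244). SRSF2, which binds exonic enhancers, was at 74.2 and 73.1 CPM with PMA, against 75.4 and 236 CPM without (−1.08 ± 0.59, adjusted p = 0.322). In SRSF2 only the untreated library of lot 2 stood apart. SRSF7, an export adaptor and the second highest SR gene per kb, was at 97.5 and 127 CPM with PMA, against 112 and 223 CPM without (−0.58 ± 0.44). SRSF11 was at 85.5 and 82.6 CPM with PMA, against 159 and 108 CPM without (−0.67 ± 0.34, adjusted p = 0.291). The values of SRSF2 and SRSF3 rested on the untreated libraries. Without untreated replicate 1 both were called (adjusted p = 0.0253 and 0.0385), and without untreated replicate 2 their log2 fold changes were −0.03 and −0.35 (adjusted p = 0.960 and 0.532).

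A few SR genes had values at or above 0. SRSF6 was at 111 and 149 CPM with PMA, against 52.9 and 146 CPM without (0.38 ± 0.55, adjusted p = 0.718). SRSF5 was at 85.0 and 139 CPM with PMA, against 37.4 and 150 CPM without (0.26 ± 0.71, adjusted p = 0.859). Both had their lowest value in the untreated library of lot 1. SRSF10, which is active as a repressor when dephosphorylated, was at 65.7 and 53.3 CPM with PMA, against 67.0 and 51.3 CPM without (0.01 ± 0.35, adjusted p = 0.9899). SRSF1, the founding member of the family, was at 106 and 60.0 CPM with PMA, against 62.4 and 135 CPM without (−0.25 ± 0.52, adjusted p = 0.808). Its log2 ratio was 0.76 in lot 1 and −1.17 in lot 2. SRSF4, SRSF8 and SRSF9 had fold changes of −0.25, −0.57 and −0.68, with standard errors of 0.30, 0.44 and 0.47.

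Genes that failed the filter were SRSF12 and the 4 HNRNPC-like genes. SRSF12 was listed at 0 in all 4 libraries. HNRNPCL1 had 1 and 0 counts with PMA, against 6 and 6 without, and HNRNPCL2, HNRNPCL3 and HNRNPCL4 had at most 2 counts in any library. The count of SRSF12 allows a level of up to 0.0921 and 0.0649 CPM with PMA and 0.0475 and 0.0695 CPM without, for counting error only.

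Summed over a family, the levels also differed by lot. The snRNP proteins summed to 900 and 965 CPM with PMA, against 1827 and 2851 CPM without, and the hnRNPs to 2618 and 2411 CPM with PMA, against 3945 and 5219 CPM without. SF3A and SF3B summed to 1309 and 1209 CPM with PMA, against 1987 and 2273 CPM without. In these 3 families the PMA libraries were below both untreated ones. The SR proteins summed to 948 and 1062 CPM with PMA, against 993 and 1789 CPM without, so lot 1 showed nearly equal sums and lot 2 did not.

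**Figure D4:**
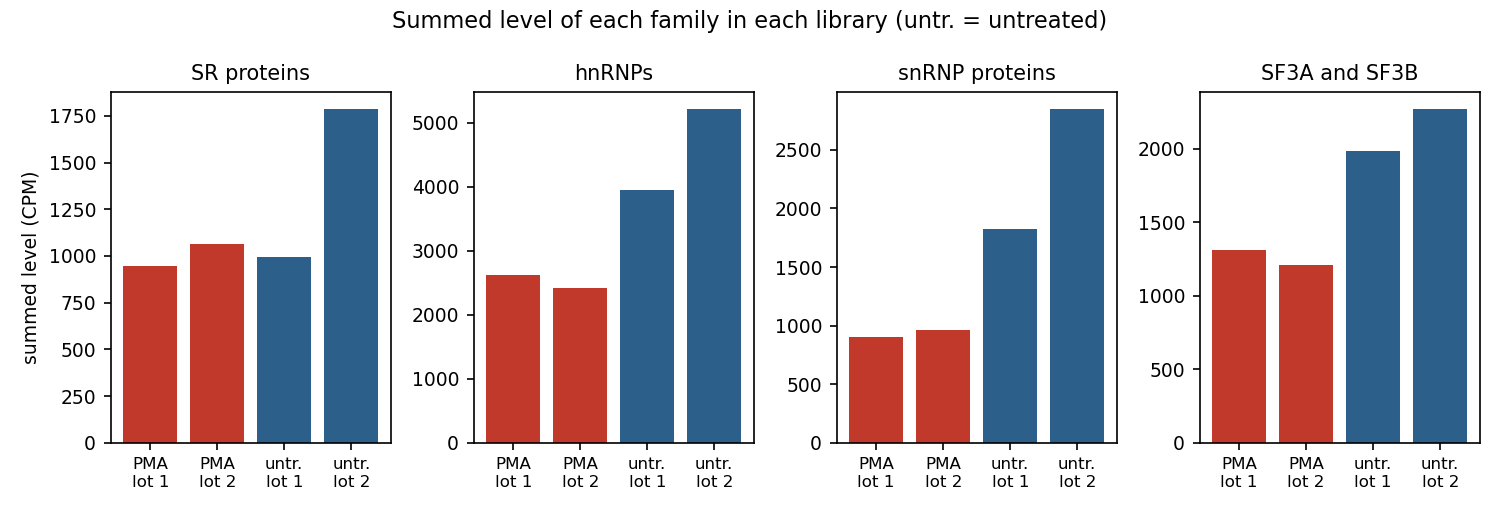
Summed level in CPM (vertical axis, 1 scale per panel, starting at 0) of the members of each family in the PMA libraries (red) and the untreated libraries (blue) of each lot. The PMA bars of a family are close to each other and the untreated bar of lot 2 is the tallest in all 4 families.

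The difference between lots lay mainly in the untreated libraries. Of 52 tested members above 0 in all libraries, 0 differed 2-fold or more between the PMA libraries, against 16.3% of all tested genes above 0 in all libraries. Between the untreated libraries 15 of the 52 did, against 34.6% of all such genes. In untreated cells lot 2 was higher than lot 1 for 43 of 52 members (82.7%), against 48.1% of all such genes. HNRNPLL is not among the 52 because it was listed at 0 without PMA, and its PMA libraries differed 9.96-fold. In lot 1, levels were at least 2-fold lower with PMA in 11 of 53 tested members, about the share over all tested genes (20.9%). In lot 2 they were so in 30 of 53, against 19.7% of all tested genes. Mitochondrial genes took a share of counts that also followed the lots, at 2.81% and 5.99% with PMA, against 3.66% and 8.58% without, and its part in these values was not tested. With 1 library per lot and group, an interaction of lot and treatment could not be fitted with an error.

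Several members have processed pseudogenes, and 178 such entries were left out by the rule. The symbol pattern could find such entries for HNRNP and SNRP genes only. Pseudogenes of SR, SF3A and SF3B genes were not searched for and are not in the counts below. They held 3869 and 5414 counts with PMA, against 14681 and 12932 without, which is 2.01% and 2.03% of the counts of members and pseudogenes together with PMA, against 2.59% and 2.41% without. HNRNPA1 has the most, 75 entries with 1315 and 1611 counts with PMA, against 8356 and 7430 without. These were 25.98% and 26.8% of the counts of gene and pseudogenes together with PMA, against 24.7% and 26.3% without, so the share listed on the copies was about the same in both groups. Adding the pseudogene counts to their genes gave 3 lower members again, with HNRNPA1 at −2.06 (adjusted p = 0.0338). No counts were added to SR, SF3A or SF3B genes, among them SF3A3. Exons of 26 members also overlap another gene in GENCODE 29, 19 of them on the opposite strand. HNRNPUL2-BSCL2, a readthrough transcript, was at 0 and 3.57 CPM with PMA, against 0 and 166 CPM without, while HNRNPUL2 was at 120 and 106 CPM with PMA, against 163 and 108 CPM without, so the low untreated value of HNRNPUL2 in lot 2 stood beside a high value of the readthrough entry.

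**Figure D5:**
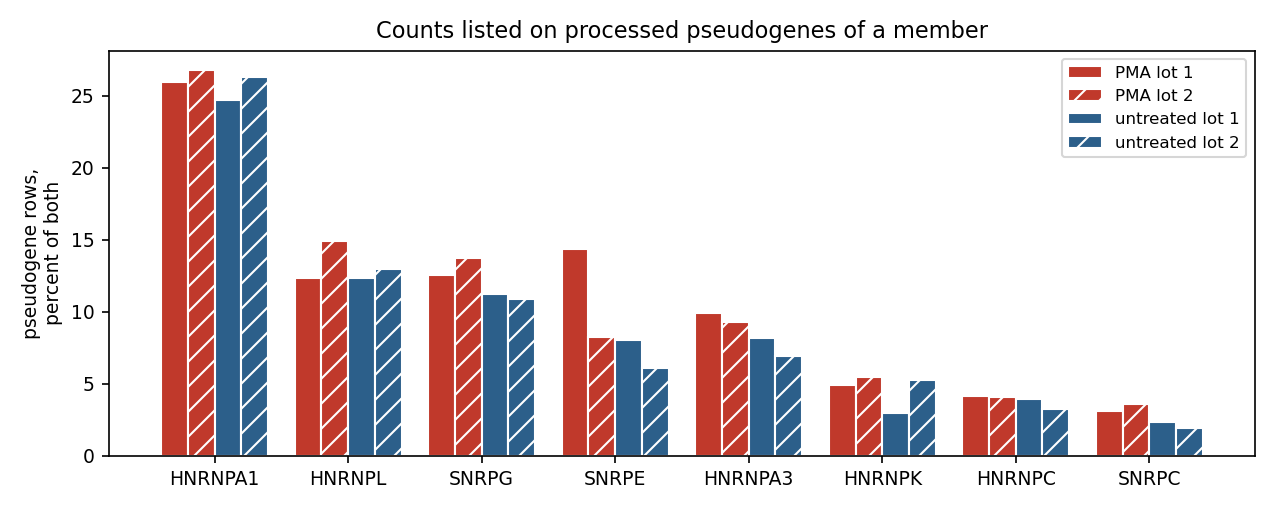
Counts listed on the pseudogenes of a member as a percent of the counts of the gene and its pseudogenes together (vertical axis), in the PMA libraries (red) and untreated libraries (blue) of lot 1 (plain) and lot 2 (hatched), for the 8 members with the largest shares. Only HNRNP and SNRP genes were searched for pseudogenes. HNRNPA1 is at 24.7% to 26.8% in all 4 libraries.

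In the authors' deposited table, 2 members were called lower, HNRNPA1 (log2 ratio −2.09, q = 0.0229) and SNRPA (−2.29, q = 0.0220), and 1 higher, HNRNPLL (q = 0.00022), against 2.72% called lower and 5.44% called higher among the genes tested here. SF3A3 was not called in the authors' deposited table (log2 ratio −1.89, q = 0.0782).

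Other genes of the splicing pathway were counted from lists chosen with earlier results of these data known, and 1 gene of these passed the test. The SMN complex loads Sm rings onto small nuclear RNAs. In the list for this complex and Sm methylation, 1 of 18 fell and 0 rose. Among all tested genes 2.02% were called lower and 4.29% higher. The list had a median log2 fold change of −0.85. The gene that fell was GEMIN4, at 28.1 and 22.6 CPM with PMA, against 84.9 and 114 CPM without (−1.97 ± 0.37, adjusted p = 0.0480). It was lost with RLE factors (0.0523), under a lot block (0.0667) and when PMA replicate 1 (0.222) or PMA replicate 2 (0.352) was left out. CLNS1A (pICln), which holds Sm proteins before assembly, was at 19.1 and 16.7 CPM with PMA, against 63.9 and 59.7 CPM without (−1.78 ± 0.35, adjusted p = 0.0522), and GEMIN2 at 3.47 and 3.22 CPM with PMA, against 15.9 and 11.6 CPM without. In this list both PMA libraries lay below both untreated libraries in 14 of 18, against 29.4% of all tested genes.

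The other lists had no call over all genes. In the list of tri-snRNP and LSM proteins (median −0.59), 17 of 25 lay below in both PMA libraries, against 29.4% of all tested genes. PPIH, a cyclophilin of the tri-snRNP, was at 12.4 and 16.1 CPM with PMA, against 48.9 and 119 CPM without (−2.56 ± 0.56, adjusted p = 0.0624). LSM5 and LSM7 had fold changes of −1.63 ± 0.42 and −1.85 ± 0.55. Among U1 and U2 factors with other symbols the median was −0.38 over 18 genes, with the intron-end reader U2AF1 at −1.51 ± 0.54. Catalytic and release factors had a median of 0.08 over 24 genes, with PRPF19 at −1.76 ± 0.41 and CWC27 at −2.10 ± 0.44, and SLU7 on the other side at 0.81 ± 0.34.

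Kinases and carriers of SR proteins had a median of −0.13 over 10 genes, and SRPK1, which phosphorylates SR proteins in the cytoplasm, was at 93.8 and 102 CPM with PMA, against 171 and 110 CPM without (−0.52 ± 0.35). SR-related proteins had a median of −0.19 over 12 genes, with PNN at −1.45 ± 0.37 (adjusted p = 0.0801) and the speckle proteins SON and SRRM2 at 0.80 ± 0.44 and 0.52 ± 0.30. The list of further hnRNP-type regulators had a median of −0.51 over 28 tested entries, with PTBP1, the polypyrimidine tract repressor, at 360 and 397 CPM with PMA, against 691 and 767 CPM without (−0.94 ± 0.28, adjusted p = 0.107). Exon junction and decay factors had a median of −0.47 over 16 genes, with UPF3B at −2.10 ± 0.40 (adjusted p = 0.0504), and minor spliceosome proteins one of −0.62 over 11 genes.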

How the data were processed

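Total RNA of U937 cells was enriched for poly(A) RNA and sequenced as barcoded libraries, per the labels' protocols. HISAT2 2.1.0 and StringTie 2.1.1 are listed, with no role, in the submitters' processing notes, and no source used here states the genome build, annotation, counting program or use of strand. The deposited estimated counts are whole numbers per gene, not scaled between libraries. A second deposited table holds the authors' own log2 ratio, p-value, q-value and call per gene, and no source used here states its test.

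Symbols are those of the deposited tables. Differences were tested with edgeR 4.0.16 in R 4.3.3 (TMM factors, filterByExpr by group, quasi-likelihood test, Benjamini-Hochberg adjustment over 16451 genes at 0.05, no block). A standard error is the size of the log2 fold change divided by the root of F. No test was run on a list. Values in every library were due, by rule, for called members, for those in each family with the smallest p, the highest and lowest fold change and the highest level per kb, for those whose lots differed in sign by a set margin, and for the genes with the smallest p in each other list. A list gene due by this rule is not reported here. Further members, such as SNRPC, HNRNPC, HNRNPUL1 and SRSF10, and list genes outside the rule, such as SRRM2, were added after their values were seen. LSM7, SLU7, SON and SRPK1 fall within the rule for lists, which rests on p-values of these data. Lengths are of the longest transcript in GENCODE release 29, which may not be the authors' annotation, and 58489 of 60662 identifiers matched. The members and lists were chosen with earlier results of these data known. Libraries are paired by the lot given in each title, and same-lot deviations correlated at 0.154 over tested genes and 0.185 over tested members. Alternatives were RLE and upper-quartile factors, other filters, DESeq2 1.42.0, limma-voom (limma 3.58.1), a lot block, other library sizes, and each library left out. Adding pseudogene counts to their genes was chosen after seeing the data. Depth was 35739833 to 54915928 counts, and a count of 0 allows up to 3 counts.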

Additional observations from a re-analysis of the deposited data

Results flagged for a closer look

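In 8 of 53 tested members the log2 ratio of PMA to untreated had opposite signs in the 2 lots. The ratio was below 0 in both lots in 42 of the 53, against 5195 of 16451 tested genes. Opposite signs were not counted over all genes. The difference between lots was not tested, because each lot has 1 library per group. SRSF1 was at 0.76 in lot 1 and −1.17 in lot 2, and SRSF5 at 1.18 and −0.11. SRSF9 was at 0.086 in lot 1 and −1.22 in lot 2, and SRSF10 at −0.028 and 0.055. HNRNPM, which binds GU-rich RNA, had the widest gap, at 0.37 in lot 1 and −2.67 in lot 2, with 49.3 and 32.5 CPM with PMA, against 38.2 and 207 CPM without. HNRNPU was at 0.16 in lot 1 and −0.83 in lot 2. SF3B1 was at −0.41 in lot 1 and 0.16 in lot 2, and SF3B4 at 0.24 and −1.06. In 6 of the 8, all but SRSF10 and SF3B1, the untreated library of lot 2 was above that of lot 1.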

How the results depend on the processing

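The median log2 fold change of the members stayed below 0 under every alternative run, at −0.95 with upper-quartile factors, which moved the median of all genes to −0.17, and −1.18 to −0.50 with 1 library left out. Counts were less stable. All genes called higher and lower numbered 705 and 332, 2205 and 1722 with DESeq2, and 1149 and 636 with limma-voom, and 721 were lower with a filter of 5 CPM in 2 libraries. With 1 library left out they numbered 424 to 1830 and 79 to 1085. Lower members numbered 3, against 9 with the 5 CPM filter, 16 with DESeq2, 5 with limma-voom, 1 with the replicate block by lot and 0 to 19 with 1 library left out. Higher members numbered 0, against 1 with no filter, 1 with DESeq2, 1 with the replicate block and 0 to 1 with 1 library left out, which was HNRNPLL each time. With the block all genes called higher and lower numbered 591 and 244, and of the members HNRNPLL gained a call and SNRPA and SF3A3 lost theirs. One of the 2 entries for MATR3 had 4.35 without untreated replicate 1, −1.85 without untreated replicate 2 and −0.87 with all libraries, and the cause was not tested. Summing entries with 1 symbol left the summed levels of the members as they were, at 5711 and 10442 CPM with PMA and without. With 2 libraries per group, values for genes with a wide spread between lots are imprecise at any depth.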
